A study of Mus musculus with 6 samples.

Results

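Ribosome biogenesis, the building of ribosomes in the nucleolus, is represented here by 47 genes that encode RNA polymerase I subunits, nucleolar proteins and pre-ribosomal RNA processing and assembly factors. They were taken by gene symbol for their role, with no cut on measured values, but by then earlier results of these data were known. All 47 were found among the 41214 genes of the table and all 47 had enough counts to be tested, among 10952 tested genes in all. RNA was measured in endothelial cells sorted from embryonic mouse hearts, with 2 libraries for each of 3 Dll4 genotypes. Dll4 is a ligand of the Notch receptors that endothelial cells carry.

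All embryos had the Pdgfb-iCreERT2-IRES-EGFP transgene, so that a Cre recombinase switched on by tamoxifen, and a green fluorescent protein, were made under Pdgfb, a gene active in endothelium. The drug was given at E13.5 (embryonic day) and the hearts collected at E14.5. Wild-type (wt) embryos carried no floxed Dll4 allele, heterozygous (het, Dll4+/-) embryos carried 1, and knockout (KO, Dll4-/-) embryos were Dll4 flox/flox, so the controls had the Cre and the tamoxifen too. CD31+ GFP+ cells were sorted from hearts of several litters. The strain and the number of hearts behind a library are not given in the sources used here. Neither is whether the 2 libraries of a group came from separate litters, so the p-values measure only the spread between these libraries, which may be technical.

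A ribosome starts with RNA polymerase I, which copies the ribosomal DNA into a long precursor RNA. Small nucleolar ribonucleoproteins (snoRNPs) modify that precursor, the small subunit processome folds and cuts it, and separate sets of factors mature the large subunit and carry both subunits to the cytoplasm. The demand for new ribosomes is high in growing and dividing cells, and many of these genes are textbook targets of the growth regulator Myc.

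The KO libraries stood apart from the rest in ways beyond Dll4. They held 6501789 and 4987999 counts, against 1537894 to 3165535 in wt and het. Lars2, a mitochondrial tRNA synthetase gene, took 16.35% to 17.08% of the counts of each wt and het library but 0.0572% and 0.0611% in KO. For 7SL RNA the shares were 0.129% to 0.234% against 0.00123% and 0.00233%, and for mitochondrial ribosomal RNA 1.33% to 3.22% against 0.108% and 0.0954%. Dll4 itself was at 196 and 183 CPM (a gene's share of the scaled library size, in parts per 1e+06) in wt, 81.2 and 85.9 in het and 19.4 and 13.7 in KO, in the order of the labels. Summed markers of S phase were at 1808 to 1890 CPM in wt, 1897 to 2024 in het and 3060 to 3085 in KO, with 10 of 12 genes higher in KO than wt, and those of mitosis at 1633 to 1773, 1867 to 2029 and 2215 to 2323, with 8 of 12 higher. Endothelial markers summed to 7087 to 7262 CPM in wt, 6727 to 7079 in het and 5769 to 6012 in KO, with 2 of 10 higher and 4 lower in KO than wt. Pecam1, one of the genes behind the sort, was between 715.8 and 892.3 in every library. Cdh5 was at 1981 and 1928 CPM in wt and 420.8 and 381 in KO (log2 fold change -2.29, adjusted p = 1.87e-13). It fell by more than the endothelial sum did, so that sum followed 1 gene. Erg had a log2 fold change of -1.26 (adjusted p = 1.26e-05), and the other lower markers, Eng and Emcn, had -0.64 and -0.40. The 2 higher markers, Kdr and Tek, had 0.44 and 0.77. Cardiomyocyte markers, of which 8 of 13 were tested and 3 were lower in KO than wt, summed to 98.1 to 112.6, 170.7 to 221.5 and 47.2 to 52.6 CPM, with Ryr2 at 0 in wt and KO. The sums for mural cells and fibroblasts were 115.6 to 189.2, 270.6 to 343.8 and 119.4 to 213.3, with 1 of 8 tested markers higher and 2 lower. Macrophage markers stood at 27.4 to 86.7, 68.4 to 262.1 and 9.33 to 33.4, with 1 of 6 lower, epicardial markers at 108.3 to 112, 105.4 to 124.2 and 73.1 to 77.4, with the 1 tested marker lower, and erythroid markers at 144.9 to 416.5, 118.2 to 379.3 and 183.9 to 236.2, with 0 of 5 called. The epicardial sum was mostly its 1 tested marker, Wt1, so it describes 1 gene more than a cell type. Wt1 was at 105.7 and 96.2 CPM in wt, 93.3 and 119 in het and 69 and 75.2 in KO. The library differences set both KO libraries apart from all others, so in this design they cannot be told apart from the genotype. Their part, and that of the cell cycle and other cell types, in the results that follow was not tested.

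The ribosome biogenesis genes were higher in KO than in wt. Together the 47 genes made up 3786 and 3782 CPM in wt, 4638 and 4045 in het, and 5160 and 5407 in KO. The KO libraries were the highest and the wt libraries the lowest, with no overlap between the 3 groups. By edgeR's quasi-likelihood test with Benjamini-Hochberg adjustment over all tested genes, at an adjusted p under 0.05, 26 of the 47 rose, 0 fell and 21 were not called, against 14.7% of all tested genes higher and 17.3% lower. At an unadjusted p under 0.05, 29 were higher and 0 lower (19.7% and 22.1% of all tested genes), while DESeq2 called 21 higher and 0 lower and limma-voom 25 and 0. The median log2 fold change was 0.58, against -0.02 over all tested genes, and 44 of 47 values were above 0 (93.6%, against 49.1% of all tested genes). In bulk libraries such as these, fewer cells of a type and less RNA per cell cannot be told apart.

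Both KO libraries exceeded both wt libraries for 37 of the 47 genes, a pattern seen in the same direction for 33.2% of all tested genes. Both were below wt for 2, Imp3 and Nle1 (34.5% of all tested genes), and the groups overlapped for 8. Replicates differed little beside this. The median absolute log2 difference of the 47 genes was 0.163 between the wt libraries, 0.168 between the het and 0.127 between the KO libraries. For the 4 pairs of a wt and a KO library it was 0.451 to 0.569. Over all tested genes it was 0.209, 0.247 and 0.171 within the groups and 0.416 to 0.426 for these 4 pairs. A wider gap between wt and KO than between replicates was thus not particular to the 47. The plot of each gene in each library shows the separation of the 47 gene by gene.

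**Figure D1:**
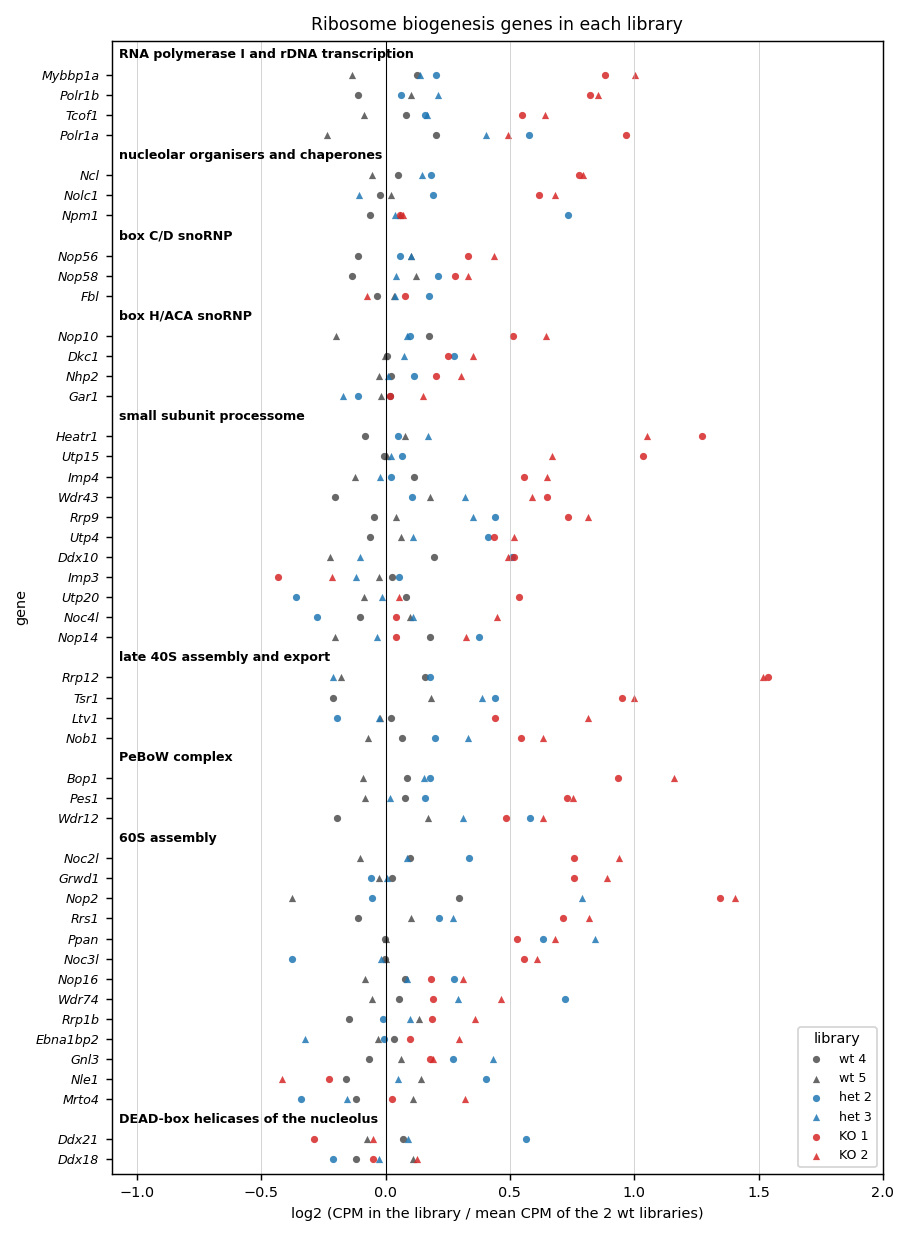
Level of each of the 47 genes in each library, as the log2 ratio of its CPM to the mean CPM of the 2 wt libraries (x axis), with 1 row per gene (y axis) and 1 symbol per library. The KO symbols lie to the right of both wt symbols in 37 rows and to the left in 2, Imp3 and Nle1.

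The count moved with the libraries used and with their scaling, as it did for all tested genes. Without wt 4, 17 of the 47 genes were called higher and 0 lower, while the share of all tested genes called higher went from 14.7% to 8.42%. Without KO 2 the count was 19 (10.6% of all), and without wt 5 it was 20 (8.99% of all). With plain library sizes in place of edgeR's trimmed mean scaling (TMM), which assumes that most genes do not change, 43 were higher and 0 lower, but then all tested genes shifted as well, from 1610 higher and 1899 lower to 3878 and 1034. That scaling moved the median of all genes from -0.02 to 0.35, and the 47 genes' median stood 0.59 above it under both scalings. A change of scaling shifts all genes nearly alike, so this difference could hardly move and is not a check of the result. The list called with Lars2, mitochondrial and small structural RNA genes removed was the same 26, and 13 of the 26 passed the threshold in all 15 alternatives run: Bop1, Grwd1, Heatr1, Imp4, Mybbp1a, Ncl, Noc2l, Nolc1, Nop2, Pes1, Rrp12, Tsr1 and Utp15.

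**Figure D2:**
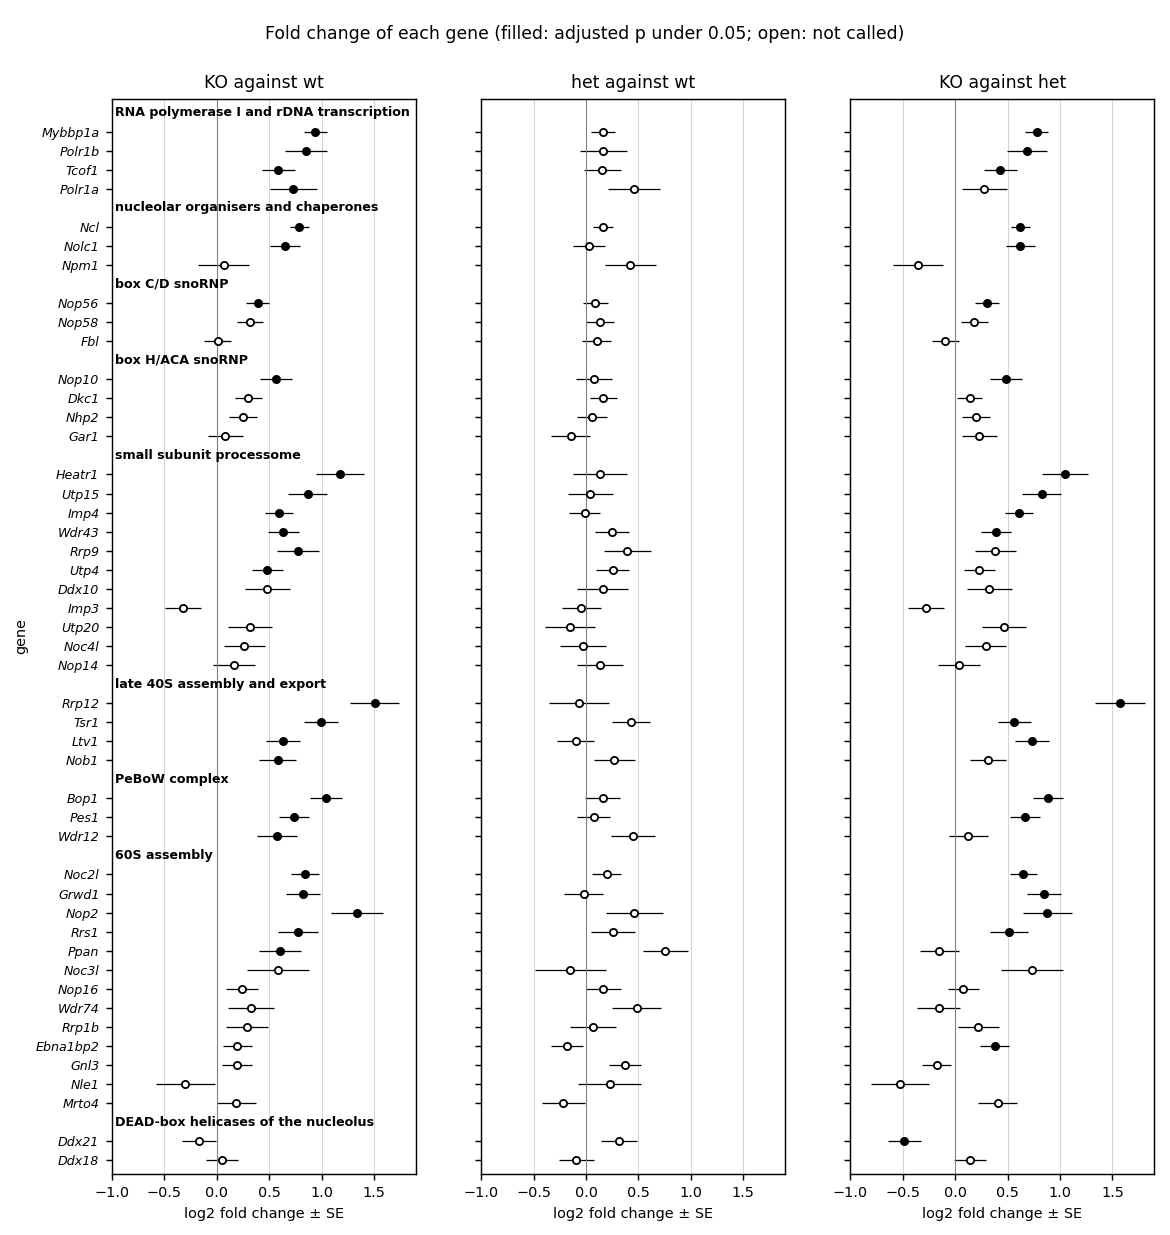
Log2 fold change with its standard error (x axis) of each of the 47 genes (y axis), in 1 panel per comparison, with filled points for an adjusted p under 0.05 in edgeR's test. There are 26 filled points in KO against wt, 0 when het is set against wt, and 22 for KO with het, of which 1, Ddx21, lies below 0.

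The canonical E-box, CACGTG, which reads the same on both strands and which Myc with its partner Max is known to bind, was searched in RefSeq promoters from 250 bases before to 50 after the start (GRCm38.p6). Of the 47 genes 41 had an entry, and 11 of these held the motif (26.8%), against 12% of 8557 tested genes and 8.1% of all 27025 promoters. After the start, 9 of the 41 held it (22.0%), against 1.9% of tested genes and 1.3% of all, while before the start 2 did (4.9%, at Imp4 and Nop2), against 10.1% and 6.9%. The 9 stretches after the start are shown because the share of the 47 genes with the motif was above that of other genes there, 5′ to 3′ on the gene's strand with the E-box in capitals. By GENCODE, 8 of these lie in an untranslated exon and that of Grwd1 in coding sequence.
Pes1, chr11:3963965-3963994, plus strand: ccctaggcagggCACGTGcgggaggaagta
Utp4, chr8:106893643-106893672, plus strand: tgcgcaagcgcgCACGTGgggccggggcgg
Wdr43, chr17:71616220-71616249, plus strand: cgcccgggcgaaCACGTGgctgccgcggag
Nle1, chr11:82908355-82908384, minus strand: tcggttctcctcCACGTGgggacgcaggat
Tsr1, chr11:74898092-74898121, plus strand: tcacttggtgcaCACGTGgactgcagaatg
Ltv1, chr10:13193092-13193121, minus strand: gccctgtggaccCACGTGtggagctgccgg
Grwd1, chr7:45830740-45830767, minus strand: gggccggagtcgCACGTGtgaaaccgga
Utp20, chr10:88826765-88826789, minus strand: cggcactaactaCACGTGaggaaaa
Mybbp1a, chr11:72441355-72441376, plus strand: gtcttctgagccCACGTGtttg

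The first base of the motif stood between 3 (Pes1) and 41 (Mybbp1a) after the start in these 9. Of the 11 genes with the motif, 9 rose in KO against wt and their median log2 fold change was 0.64. Of the 30 with an entry and no motif, 13 rose and the median was 0.36, and of the 6 with no entry 4 rose and the median was 0.68. Nle1 and Utp20 held the motif and were not called. A match describes the letters of this window and is not evidence of binding.

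**Figure D3:**
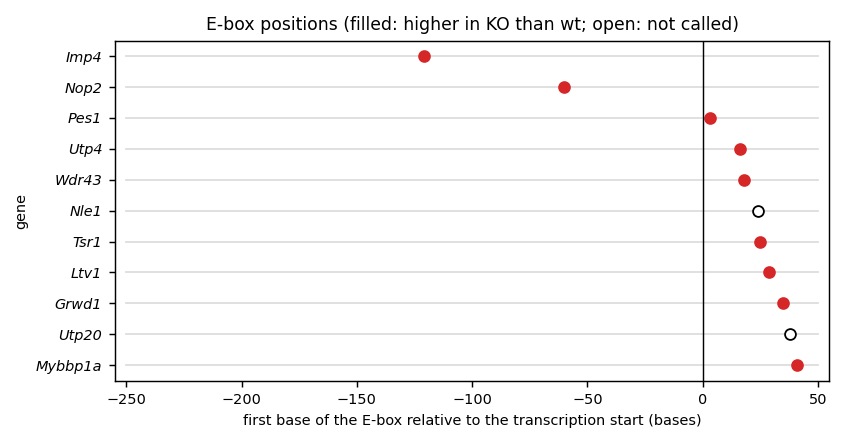
Position of the first base of CACGTG relative to the transcription start in bases (x axis) for the 11 genes that hold it (y axis), filled where the gene was higher in KO than wt. Imp4 at -121 and Nop2 at -60 lie before the start, and the other 9 lie between 3 and 41 after it.

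All 4 genes of ribosomal DNA transcription rose in KO against wt by edgeR, 1 of them (Polr1a) by no other tool, with a median log2 fold change of 0.79. Mybbp1a, a nucleolar protein that binds Myb and takes part in ribosomal RNA synthesis, was at 189.6 and 158.2 CPM in wt, 200.1 and 191.2 in het and 321.0 and 348.9 in KO. The KO libraries stood clear of all 4 others, and the log2 fold change against wt was 0.94 ± 0.11 (SE, adjusted p = 1.58e-06). Polr1b, the subunit that forms the catalytic centre of the polymerase with Polr1a, was at 24.0 and 27.8 CPM in wt, 27.1 and 30.0 in het and 45.8 and 46.8 in KO. Again only KO stood apart, by 0.85 ± 0.20 (adjusted p = 0.00250). Tcof1, the treacle protein that supports transcription of ribosomal DNA, was at 52.7 and 46.8 CPM in wt, 55.6 and 55.8 in het and 72.7 and 77.5 in KO, a rise of 0.59 ± 0.16 over wt (adjusted p = 0.00692). For Polr1a, the largest subunit of the polymerase, the values of 29.1 and 21.5 in wt, 37.8 and 33.5 in het and 49.5 and 35.6 in KO put KO above wt, but KO overlapped het. Its rise of 0.73 ± 0.22 (adjusted p = 0.0161) was not called by DESeq2 (adjusted p = 0.0724) or limma-voom (0.0555), nor without wt 5 (0.176) or KO 1 (0.206). The rise of Tcof1 was not called without wt 5 (0.0744), and that of Polr1b without wt 4 (0.0563) or after thinning to equal totals (0.0602).

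Among the organisers of the nucleolus, nucleolin and Nolc1 rose and nucleophosmin was not called. Ncl encodes nucleolin, an abundant RNA-binding protein that acts in ribosomal DNA transcription and precursor processing. It was at 467.9 and 435.4 CPM in wt, 512.8 and 499.7 in het and 774.8 and 782.9 in KO. The 3 genotypes did not overlap, and KO against wt gave 0.78 ± 0.09 (adjusted p = 1.20e-06). Nolc1, a chaperone that binds snoRNPs, was at 77.5 and 79.7 CPM in wt, 89.7 and 72.9 in het and 120.5 and 126.0 in KO, with only the KO libraries apart, by 0.65 ± 0.14 over wt (adjusted p = 0.00117). Npm1, the histone chaperone nucleophosmin, was at 658 and 715 CPM in wt, 1141 and 705 in het and 714 and 721 in KO. The 1 high value was het 2, and KO against wt was 0.06 ± 0.24 (adjusted p = 0.877). Of all 50-base stretches of Npm1, 24.3% also occur in other genes, so its counts are less certain than those of most of the 47. The same limit holds for genes that rose, Tsr1 (29.1%), Pes1 (23.3%), Noc2l (19.2%) and Nop56 (18.65%), and for Fbl (19.7%), which was not called.

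The snoRNPs are RNA-guided enzymes of the nucleolus. Of the box C/D proteins, which guide methylation of the precursor, 1 of 3 rose. That was Nop56, a core scaffold, at 155.4 and 179.7 CPM in wt, 174.5 and 179.7 in het and 211.2 and 226.5 in KO. KO lay above the rest by a small margin, 0.39 ± 0.11 over wt (adjusted p = 0.0109), and the call was lost without wt 4 (0.129) or KO 2 (0.0976) and after thinning (0.105). Its partner Nop58 was at 115.2 and 138.0, 146.7 and 130.5, and 153.8 and 159.3 CPM in the 3 genotypes, with 0.31 ± 0.13 (adjusted p = 0.0612). Fbl, the fibrillarin methyltransferase, was at 99.8 and 104.4, 115.4 and 104.7, and 107.7 and 97.0, so that KO overlapped both other groups, with 0.01 ± 0.13 (adjusted p = 0.973).

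Of the 4 box H/ACA proteins, which guide pseudouridine formation, Nop10 alone passed the test. It was at 69.8 and 53.8 CPM in wt, 66.2 and 65.6 in het and 88.2 and 96.7 in KO, a rise of 0.56 ± 0.16 (adjusted p = 0.00802) that was not called without wt 5 (0.133) or KO 2 (0.0618). Dkc1, the pseudouridine synthase dyskerin, was at 115.2 and 114.5, 138.9 and 120.7, and 136.6 and 146.7. Both KO values lay above wt and overlapped het, with 0.30 ± 0.12 (adjusted p = 0.0701). Nhp2, at 91.6 and 88.6, 97.6 and 90.7, and 103.6 and 111.1, gave 0.25 ± 0.13 (adjusted p = 0.162), and Gar1, at 50.5 and 49.4, 46.3 and 44.3, and 50.5 and 55.5, gave 0.08 ± 0.17 (adjusted p = 0.751).

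In the small subunit processome, the large particle that forms on the precursor as it is made, 6 of 11 genes rose, with a median log2 fold change of 0.48. Heatr1, a subunit also needed for ribosomal DNA transcription, was at 17.6 and 19.6 CPM in wt, 19.2 and 20.9 in het and 44.9 and 38.5 in KO. Its KO libraries were far above the rest and the 4 others nearly alike, a difference of 1.18 ± 0.23 over wt (adjusted p = 3.85e-04). Utp15 was at 33.8 and 34.2, 35.6 and 34.6, and 69.6 and 54.1 CPM, with the same split of KO from the other 4 and 0.87 ± 0.19 (adjusted p = 0.00120). Imp4, a partner of the U3 snoRNA, was at 92.5 and 78.5, 86.9 and 84.1, and 125.7 and 134.0, with 0.59 ± 0.13 (adjusted p = 0.00185). Wdr43 was at 65.9 and 86.1, 81.9 and 94.9, and 119.2 and 114.3, with het overlapping wt and KO above both by 0.64 ± 0.15 over wt (adjusted p = 0.00234). The other 2 calls were Rrp9, a U3 snoRNP protein, at 0.78, and Utp4 at 0.48. Wdr43, Rrp9 and Utp4 were not called without wt 4, with adjusted p of 0.0825, 0.0616 and 0.135, and Utp4 was not called without wt 5 (0.0560), without KO 2 (0.0883) or with DESeq2 (0.0662) either.

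The other 5 processome genes were not called. Ddx10, Utp20, Noc4l and Nop14 had log2 fold changes of 0.48, 0.31, 0.26 and 0.17. Imp3, which works in a complex with Imp4, lay on the other side. It was at 55.2 and 53.2 CPM in wt, 56.3 and 49.9 in het and 40.1 and 46.7 in KO. KO was below both other groups, but the difference of -0.33 did not pass the test (adjusted p = 0.158).

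All 4 factors of late small subunit assembly and export rose, with a median of 0.81. Rrp12, an export factor, had the highest fold change of the 47 genes. It was at 17.6 and 13.9 CPM in wt, 17.8 and 13.6 in het and 45.7 and 45.1 in KO. Wt and het overlapped while KO was 2.84 times wt, a log2 fold change of 1.51 ± 0.23 (adjusted p = 4.35e-05). Tsr1, a GTPase-like factor on the immature small subunit, was at 38.5 and 50.6, 60.5 and 58.3, and 86.2 and 89.1, in 3 groups that did not overlap, with 0.99 ± 0.17 for KO against wt (adjusted p = 8.98e-05). Of its exon bases 32.3% overlap Srr on the opposite strand, which was itself not called (adjusted p = 0.844). Ltv1, an adaptor for export, was at 64.6 and 62.7, 55.6 and 62.5, and 86.4 and 111.8, with 0.63 ± 0.16 (adjusted p = 0.00427). Nob1, the nuclease that makes the last cut of the small subunit RNA, was at 39.0 and 35.4, 42.7 and 46.8, and 54.3 and 57.7, with 0.58 ± 0.18 (adjusted p = 0.0144). Ltv1 was not called without KO 2 (adjusted p = 0.0909), and Nob1 without wt 4 (0.0573), wt 5 (0.106) or KO 2 (0.0714), with DESeq2 (0.0780) or after thinning (0.0525).

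The 3 proteins of the PeBoW complex, which acts in processing of the large subunit RNA, all rose, with a median of 0.74. Bop1 was at 60.8 and 53.8 CPM in wt, 64.8 and 63.9 in het and 109.5 and 128.2 in KO. KO was 2.06 times wt, with 1.04 ± 0.15 (adjusted p = 1.75e-05). Pes1, its partner, was at 70.2 and 62.7, 74.1 and 67.4, and 110.3 and 112.1, with KO apart from the rest and 0.74 ± 0.14 (adjusted p = 4.21e-04). Wdr12, the third subunit, differed in pattern. It was at 30.0 and 38.6 CPM in wt, 51.3 and 42.6 in het and 47.9 and 53.1 in KO, so that het and KO overlapped above wt. Its rise in KO of 0.58 ± 0.19 (adjusted p = 0.0255) was not called without wt 4 (0.266) or KO 2 (0.121), with DESeq2 (0.111) or after thinning (0.104).

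Of the 13 other large subunit assembly factors 5 rose, with a median of 0.33 over the 13. Nop2, a methyltransferase of the large subunit RNA, was at 45.4 and 28.5 CPM in wt, 35.6 and 63.9 in het and 93.8 and 97.9 in KO. Wt and het were spread and overlapped, while both KO values were higher, 2.53 times wt (1.34 ± 0.24, adjusted p = 0.00133). Noc2l, a nucleolar complex protein, was at 106.2 and 92.4, 125.3 and 105.4, and 168.1 and 190.5, with 0.84 ± 0.13 (adjusted p = 4.73e-05). Its exon bases overlap those of Samd11 on the opposite strand for 20.9%, and Samd11 had too few counts to be tested. Grwd1, a chaperone of a large subunit protein, was at 44.5 and 43.0, 42.0 and 44.0, and 74.0 and 81.3, with wt and het alike and KO higher by 0.82 ± 0.16 (adjusted p = 5.11e-04). Rrs1, which helps bring the 5S particle into the large subunit, was at 27.8 and 32.3, 34.9 and 36.3, and 49.2 and 52.9, rising by 0.78 ± 0.19 (adjusted p = 0.00319), and was not called without wt 4 (0.0662). Ppan was at 25.3 in both wt libraries, 39.2 and 45.4 in het and 36.5 and 40.5 in KO, with KO among the het values and both above wt. Its call in KO (0.60, adjusted p = 0.0267) was lost without wt 4 (0.127), wt 5 (0.109) or KO 2 (0.123), with DESeq2 (0.122) and after thinning (0.143).

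The other 8 large subunit factors were not called in KO against wt. Noc3l had a log2 fold change of 0.58 on low counts, and Wdr74, Rrp1b, Nop16, Ebna1bp2, Gnl3 and Mrto4 had 0.33, 0.29, 0.24, 0.20, 0.19 and 0.19. Nle1, a factor that also has a role in Notch signalling, was at 15.4 and 19.0 CPM in wt, 22.8 and 17.8 in het and 14.7 and 12.9 in KO. KO was the lowest group, with -0.30 against wt (adjusted p = 0.454).

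Neither nucleolar helicase was called in KO against wt. Ddx21, a DEAD-box helicase that links ribosomal RNA transcription and processing, was at 86.1 and 77.8 CPM in wt, 121.1 and 87.3 in het and 67.1 and 79.1 in KO. KO overlapped wt, and het 2 was the highest library. The difference was -0.17 ± 0.16 against wt (adjusted p = 0.452). Ddx18 was at 63.8 and 74.7, 59.8 and 68.1, and 66.9 and 75.7, with 0.05 ± 0.16 (adjusted p = 0.844), and 55.9% of its 50-base stretches occur in other genes too.

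Between het and wt none of the 47 genes was called by edgeR, DESeq2 or limma-voom, where edgeR called 0.128% of all tested genes higher and 0.0457% lower. At an unadjusted p under 0.05 edgeR gave 4 higher and 0 lower of the 47, against 4.33% and 3.83% of all tested genes, so the total was near the background. These 4 were Ppan with a log2 fold change of 0.76 (adjusted p = 0.225), Gnl3 with 0.37 (adjusted p = 0.512), Tsr1 with 0.43 (adjusted p = 0.523) and Wdr12 with 0.45 (adjusted p = 0.589). The median over the 47 was 0.16, against 0.01 over all tested genes, and 35 were above 0 (74.5%, against 51% of all tested genes). Both het libraries exceeded both wt libraries for 19 of the 47, against 19.2% of all tested genes, and were below for 4, against 18.8%. The mean levels ran in the order wt, het, KO for 29 of the 47 (61.7%, against 21.3% of all tested genes). Het was highest for 7 and lowest for 10 of the 47, and for 3218 and 2970 of the 10952 tested genes. Npm1 (0.42, adjusted p = 0.723) was the 1 gene whose call turned on a library, higher in het at 0.73 (adjusted p = 0.00121) without het 3, which leaves het 2 alone.

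Between KO and het 21 of the 47 genes rose in KO and 1 fell, against 13.9% and 17.2% of all tested genes. DESeq2 called 14 higher and 0 lower, limma-voom called 19 higher, and the fits without 1 library called 14 to 21 higher. The median was 0.38, against -0.02 over all tested genes. Both KO libraries exceeded both het libraries for 31 of the 47 genes, against 31.4% of all tested genes, and were below for 4, against 33%. This comparison shares its KO libraries with the one against wt, so the 2 are not independent. By role, 3 of the 4 genes of ribosomal DNA transcription, 2 of 3 organisers, 1 of 3 box C/D and 1 of 4 box H/ACA proteins, 4 of 11 processome genes, 3 of 4 late small subunit factors, 2 of 3 PeBoW proteins and 5 of 13 other large subunit factors were higher.

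Rrp12 again had the highest log2 fold change, 1.57 (adjusted p = 2.96e-05), followed by Heatr1 with 1.04 (adjusted p = 0.00104), Bop1 with 0.89 (adjusted p = 9.63e-05) and Nop2 with 0.88 (adjusted p = 0.0133). Mybbp1a and Ncl were higher by 0.78 and 0.62 (adjusted p = 1.57e-05 and 2.18e-05). Polr1a, Nob1 and Wdr12, which rose against wt, gave 0.28, 0.31 and 0.13 against het (adjusted p = 0.359, 0.177 and 0.653). Of the genes higher than in het, DESeq2 did not call Tcof1, Nop56, Nop10, Wdr43, Rrs1, Polr1b (adjusted p = 0.0669) or Ebna1bp2 (0.145). After thinning to equal totals the same genes except Nop10 were not called, and limma-voom did not call Nop56 (0.0522) or Wdr43 (0.0567). Nop2 was not called without KO 1 (0.0522) or KO 2 (0.0690), and 12 of the 22 calls passed in all 15 alternatives. The calls of Tcof1, Nop56, Nop10, Wdr43 and Rrs1 were each lost without any 1 of at least 3 libraries (adjusted p up to 0.225), that of Polr1b without het 2 (0.0507) and that of Tsr1 without het 3 (0.0687). Ebna1bp2, which works with Rrp1b in large subunit assembly, was called in this comparison but not against wt, with 0.38 (adjusted p = 0.0490), and not without wt 5 (0.0670), het 3 (0.398) or KO 2 (0.280).

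The gene that fell was Ddx21, by 0.49 ± 0.16 (adjusted p = 0.0244). Its het 2 value was the highest of the 6 libraries. Without het 2 the difference was -0.25 (adjusted p = 0.321), and the call was also lost without wt 4 (0.0682), without KO 1 (0.187), with DESeq2 (0.0903) and with plain library sizes (-0.11, adjusted p = 0.610). Npm1, at -0.36 (adjusted p = 0.354), was lower in KO than het at -0.67 (adjusted p = 1.39e-04) without het 3.

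Levels can be compared between genes only per length of RNA. As CPM per kilobase of merged exons, the 47 genes had a median of 15.8 in wt, 17.9 in het and 22.8 in KO. In wt they ran from 2.13 for Polr1a to 258 for Npm1. Merged exons include retained introns for some genes, among them Ncl. By the length of the principal transcript alone wt Npm1 stood at 420, Nop56 at 89.3, Nhp2 at 86.5 and Fbl at 85.3. Below them came Nop58 at 73.9, Imp3 at 58.65, Nop10 at 55.7 and Ncl at 55.1. The transcript used for Ncl is still 8202 bases long, against 10188 for its merged exons. Its value may therefore be too low, and its rank among these genes is not known. The genes at high level per length thus included ones that rose in KO (Ncl, Nop56, Nop10) and ones not called (Npm1, Fbl, Nhp2, Nop58, Imp3).

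Outside the 47, 141 other genes of the pathway were tested in the same fit. In KO against wt 38 rose (27.0%) and 9 fell (6.38%), with a median log2 fold change of 0.24, and without wt 4 there were 22 and 4. Of all tested genes 14.7% rose and 17.3% fell in KO against wt with all 6 libraries. Between het and wt 0 of the 141 were called by edgeR, DESeq2 or limma-voom. There edgeR called 0.128% of all tested genes higher and 0.0457% lower. At an unadjusted p under 0.05 edgeR gave 9, with 7 higher and 2 lower. All tested genes gave 4.33% and 3.83%, so the total was near the background. Between KO and het 32 rose (22.7%) and 9 fell (6.38%), against 13.9% and 17.2% of all tested genes. Of 18 other RNA polymerase I subunits and factors 1 rose, the initiation factor Rrn3 with 0.49 (adjusted p = 0.0318), and the median was -0.14. DESeq2 called 0 of the 18, and limma-voom 1.

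Of 45 other small subunit factors 14 rose and 5 fell (median 0.25). Nol6 and Bms1, processome components, rose by 1.36 and 1.20 (adjusted p = 8.75e-05 and 1.59e-04), and the kinase Riok3 fell by 0.94 (adjusted p = 1.48e-05). Of 53 other large subunit factors 18 rose and 3 fell (median 0.32). Nsun2, counted here though known chiefly as a tRNA methyltransferase, rose by 1.25 (adjusted p = 8.46e-08). The GTPase Lsg1, which acts in the cytoplasm, rose by 1.02 (adjusted p = 1.59e-04), while Nsa2 fell by 1.12 (adjusted p = 1.13e-05). Nsun5, which methylates large subunit RNA, was counted among the 45 small subunit factors.

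Of 11 other snoRNP factors 1 rose and 1 fell (median 0.23). Naf1, which assembles box H/ACA particles, was at 24.0 and 24.1 CPM in wt, 32.1 and 22.0 in het and 1.69 and 2.71 in KO. KO was far below every other library, a fall of 3.46 on the log2 scale (adjusted p = 2.97e-07), while the box H/ACA proteins among the 47 lay between 0.08 and 0.56 above wt. Nufip1, a snoRNP assembly factor, rose by 0.76 (adjusted p = 0.0194), but DESeq2 called 0 of the 11 higher. The last list held 14 tested genes, those of the RNA exosome and its partners and, counted with them, the separate exonuclease Xrn2. Of the 14, 4 rose and 0 fell by edgeR, DESeq2 and limma-voom alike (median 0.13). Among the 4 were Exosc10, Dis3 and Xrn2 with 0.81, 0.94 and 0.59 (adjusted p = 1.07e-04, 3.80e-04 and 8.81e-04 by edgeR).

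The factors above assemble the proteins of the ribosome itself with its RNA. Of 78 cytosolic ribosomal protein genes 3 rose (3.85%) and 40 fell (51.3%) in KO against wt, against 14.7% and 17.3% of all tested genes. Their median log2 fold change was -0.36. With plain library sizes, which raise the median of all genes to 0.35, 15 rose, 15 fell and the median was 0.01. Relative to the median of all genes it was -0.34 under both scalings, against 0.59 for the 47. Such differences hardly move with the scaling, which shifts all genes nearly alike. This list was taken by symbol after other results were known.

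**Figure D4:**
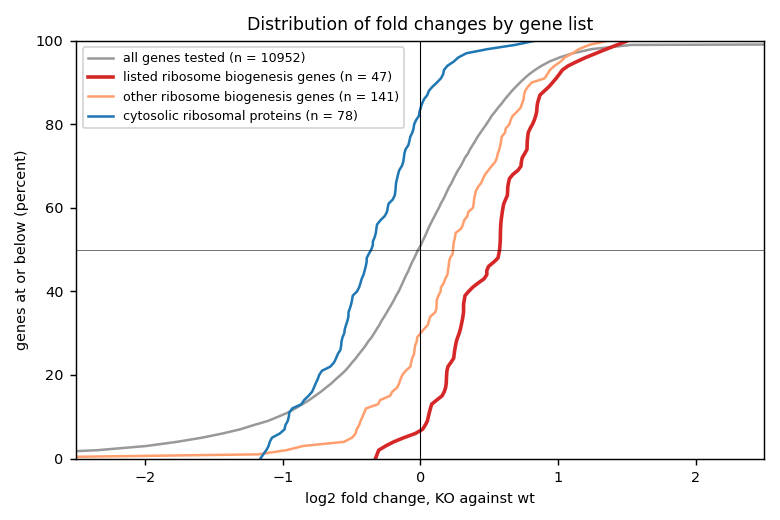
Share of genes at or below each log2 fold change of KO against wt (x axis, log2; y axis, percent of the genes in a list), with 1 line each for the 47 ribosome biogenesis genes, the other genes of the pathway, the cytosolic ribosomal proteins and all tested genes. The line of the 47 lies to the right (median 0.58) and that of the ribosomal proteins to the left (median -0.36) of the line of all genes (-0.02). With plain library sizes the medians are 0.94, 0.01 and 0.35, in the same order.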

How the data were processed

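Per the submitters' processing notes, reads were handled with CASAVA and cutadapt and quantified with RSEM on GRCm38, with no versions stated. Single reads are named in 1 place of the labels and paired reads in another. The authors deposited the resulting expected counts per gene, whose identifiers refer to Ensembl release 76, in 1 table for all 6 libraries. Of its identifiers 97.9% were matched to GENCODE M21. Counting by strand is not stated in the sources used here.

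Expected counts were rounded and fitted with edgeR 4.0.16 in R 4.3.3 (TMM scaling, filterByExpr with a minimum count of 10, robust quasi-likelihood F test, two-sided). All 6 libraries entered 1 fit with genotype as the only term, with 3 residual degrees of freedom. Calls were made where a gene's p, adjusted by Benjamini and Hochberg's method across all tested genes, was under 0.05. CPM uses the TMM-scaled library sizes. The median count of the 47 genes was 78 to 167 per library in wt and het and 457 and 546 in KO, and the lowest was 13. The replicates of each group differed by more than counting noise.

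The alternatives were DESeq2 1.42.0 and its size factors, limma-voom (limma 3.58.1), plain library sizes, no filter, only the 2 groups compared, removal of Lars2, mitochondrial and small structural RNA genes, removal of a GC trend, thinning to equal totals, and leaving out each library. The fits were tested on simulated data. The 47 genes, the other lists and the tests were chosen with earlier results of these data known. Within each role the up to 4 genes with the lowest p in KO against wt are given by library, as are some others singled out after their values were seen (Imp3, Nle1, Ppan and Wdr12 among them), and up to 3 genes of each other pathway list. Promoter sequences are RefSeq's for GRCm38.p6.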

Additional observations from a re-analysis of the deposited data

How the results depend on the processing

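In KO against wt the count of genes called lower was 0 in all 15 alternatives, and the count called higher (26) was 43 with plain library sizes and 17 to 28 over the fits that left out 1 library. With plain library sizes the median log2 fold change was 0.94 in KO against wt and 0.75 in KO against het, and 38 genes were higher and 0 lower in KO against het. In KO against het the count called lower (1) was 0 with DESeq2 or with only the 2 groups compared, 2 with no filter, and 0 to 2 when 1 library was left out. In het against wt the count called higher (0) was 1 with no filter and 0 to 1 when 1 library was left out, the gene being Npm1 each time. The medians without 1 library ran from 0.51 to 0.62, 0.08 to 0.17 and 0.34 to 0.42 in KO against wt, het against wt and KO against het. Among the other genes of the pathway the count higher in KO against wt (38) was 91 with plain library sizes, 25 with DESeq2 and 22 to 39 without 1 library, and the count lower (9) was 4, 4 and 4 to 9, and 5 after thinning. The cause was not tested. The fits without 1 library leave a group with 1 sample, which is assumed to vary like the others. No call among the 47 changed direction. Use of the principal transcript length was chosen after seeing the data. No paired analysis was possible because any pair of groups shares at most 1 replicate number. With 13 to 34 counts for the lowest of the 47 genes in a wt or het library, small differences of such genes were not detectable at this depth.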
